A study of Mus musculus with 10 samples.

Results

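The expression of 10 genes of the Polycomb system was followed across the RNA-sequencing libraries of 5 mouse lines: *Ezh1*, *Ezh2*, *Eed*, *Suz12*, *Jarid2*, *Mtf2*, *Rnf2*, *Cbx7*, *Kdm6a* and *Kdm6b*. They were chosen by name, as subunits of the Polycomb repressive complexes and as histone demethylases that remove their mark. Earlier results of these data were known at that point. All 10 were among the 18901 genes listed. The study asks how soluble Netrin-1, a guidance cue that also controls cell survival, acts on the reprogramming of fibroblasts to induced pluripotent stem (iPS) cells. All lines share an Oct4-GFP reporter and a cross of the mf1 and 129 strains. Oct4-GFP mouse embryonic fibroblasts (MEF), the starting cells, were sequenced at passages 2 and 4 and grown in serum. The other lines came from such MEF after retroviral delivery of Oct4, Sox2, Klf4 and c-Myc and were sequenced at passages 5 and 25, in KSR medium with LIF. They comprise pre-iPS cells, which had neither reactivated the reporter nor silenced the retroviruses, 'control' iPS cells from the same factors alone, and clones 1 and 2 of the 'rNetrin-1-derived' iPS cells, made in the presence of recombinant Netrin-1. Each line is a single culture or clone with 2 libraries, so the p-values below measure the spread between passages of a line and not between independently derived lines.

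Polycomb repressive complex 2 (PRC2) places methyl groups on lysine residues of histone H3 (H3K27me3) through its catalytic subunit Ezh2 or Ezh1, which needs Eed and Suz12 to be active. Polycomb repressive complex 1 (PRC1) contains a RING subunit, either Rnf2 (Ring1b) or Ring1, that ubiquitylates histone H2A, and its canonical form reads the PRC2 mark through a CBX subunit such as Cbx7. Kdm6a (Utx) and Kdm6b (Jmjd3) are demethylases of the same residue, and in pluripotent cells the system holds developmental regulators silent.

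The PRC2 core genes and *Ezh1* took different courses between the lines, so their promoters are shown first. The sequences are the 250 bases before the annotated start in RefSeq (GRCm38.p6), written 5′ to 3′ on the strand of the gene, with CCAAT (or its reverse ATTGG) and the E2F-type octamer TTTCCCGC (or its reverse) in capitals. They lie at chr6:47595031-47595280 on the minus strand for *Ezh2*, chr7:89980977-89981226 on the minus strand for *Eed*, chr11:79992856-79993105 on the plus strand for *Suz12* and chr11:101226464-101226713 on the minus strand for *Ezh1*.
Ezh2: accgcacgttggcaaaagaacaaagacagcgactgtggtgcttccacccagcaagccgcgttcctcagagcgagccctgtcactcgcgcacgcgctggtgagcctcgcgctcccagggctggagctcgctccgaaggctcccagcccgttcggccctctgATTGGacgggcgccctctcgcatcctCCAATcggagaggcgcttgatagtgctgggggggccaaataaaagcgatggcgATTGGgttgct
Eed: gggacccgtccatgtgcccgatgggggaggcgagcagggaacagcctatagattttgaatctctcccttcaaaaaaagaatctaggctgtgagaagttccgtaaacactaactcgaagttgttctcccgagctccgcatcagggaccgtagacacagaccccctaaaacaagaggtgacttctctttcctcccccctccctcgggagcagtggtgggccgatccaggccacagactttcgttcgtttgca
Suz12: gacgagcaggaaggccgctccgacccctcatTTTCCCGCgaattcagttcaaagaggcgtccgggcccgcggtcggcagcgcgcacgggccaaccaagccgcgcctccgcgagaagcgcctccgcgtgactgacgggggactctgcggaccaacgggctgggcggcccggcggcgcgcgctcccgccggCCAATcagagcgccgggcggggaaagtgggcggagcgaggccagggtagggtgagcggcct
Ezh1: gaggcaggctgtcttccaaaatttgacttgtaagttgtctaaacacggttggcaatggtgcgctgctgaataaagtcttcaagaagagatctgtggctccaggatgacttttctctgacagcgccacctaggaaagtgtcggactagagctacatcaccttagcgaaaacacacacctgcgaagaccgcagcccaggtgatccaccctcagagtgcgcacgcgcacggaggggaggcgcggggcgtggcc
The *Ezh2* window held 3 CCAAT matches, and the *Suz12* window held 1 CCAAT and 1 octamer match. The *Eed* and *Ezh1* windows held neither motif on either strand. Over all 32851 promoter windows of this length, 33.8% held CCAAT and 0.895% the octamer, so CCAAT is a common match. The windows of *Ezh2* and *Suz12* contained 23 and 37 CpG dinucleotides, those of *Eed* and *Ezh1* 12 and 14, and the median over all windows was 6. A match is a run of letters and not evidence of a bound factor. Of the 10 genes, 9 had a promoter entry and *Kdm6b* was the exception.

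By the GENCODE M21 annotation of GRCm38, the members lie on 8 chromosomes, with *Ezh1* (11:101191115-101226463), *Suz12* (11:79993106-80034123) and *Kdm6b* (11:69398508-69413675) together on chromosome 11. *Kdm6a* is X-linked (X:18162575-18279936). Exons of *Mtf2* and *Tmed5*, on opposite strands, share 395 bases, and *Eed* shares 261 bases of exon with the listed antisense gene *E230029C05Rik*. The kit did not mark strand, so reads from these stretches cannot be told apart. The libraries held 38110410 to 52946856 reads on genes. Values below are the deposited pseudo-counts, which are reads brought by the authors to a common library size, and 1 read was worth 0.888 to 1.18 of them. Line labels were read against 18 markers. The summed value of 5 fibroblast genes (*Col1a1*, *Col1a2*, *Thy1*, *Pdgfra*, *Twist1*) was 2064885 to 2191018 in MEF and 16181 to 28111 in the iPS lines, and that of 5 pluripotency genes (*Nanog*, *Esrrb*, *Zfp42*, *Dppa3*, *Fgf4*) was 106 to 112 in MEF and 7837 to 35877 in the iPS lines. Pre-iPS cells reached 9069 to 9271 on the second list through *Zfp42* and *Fgf4*, while *Esrrb* (31.6 and 15.4) and *Dppa3* (8.16 and 4.80) were close to MEF. *Nanog* lay between, at 311 and 350 against 34.5 and 36.9 for MEF and 2489 to 7441 in iPS libraries. The MEF libraries also held macrophage transcripts, with a sum over *Lyz2*, *Cd68*, *Csf1r* and *Adgre1* of 10658 to 10699 against 430 to 1649 in the other lines. *Cd68* made up most of the lower sums and did not separate the lines, at 767 and 715 for MEF, 1565 and 853 for pre-iPS cells and 354 to 1124 in iPS libraries. Their part in the MEF values below was not tested. The epithelial genes *Cdh1* and *Epcam* summed to 110 to 134 in MEF and 22507 to 33753 elsewhere. *Pecam1* and *Cdh5*, listed as endothelial genes, summed to 10.6 to 14.1 and 222 to 3012. Outside MEF that sum was mostly *Pecam1*, at 196 to 2948, with *Cdh5* at 26.5 to 160. Whether any endothelial cells were present was not tested. In bulk RNA, fewer cells of a type and less RNA per cell cannot be told apart. The MEF libraries were far closer to each other than those of the other lines. Their reads differed over genes with a chi-square of 2.67 per degree of freedom, above the value of 1 that counting alone gives, against 34.4 to 48.2 elsewhere. They were kept as 2 samples.

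Among the catalytic subunits, *Ezh2*, the enzyme of proliferating cells, climbed from MEF to pre-iPS to iPS cells. Its value was 1917 and 1907 for MEF (passages 2 and 4), 3719 and 4006 for pre-iPS cells (passages 5 and 25), 5983 and 5748 for control iPS cells, 5018 and 5617 for clone 1 and 5983 and 5818 for clone 2. No MEF or pre-iPS library reached any iPS library. Against the mean of the 3 iPS lines, *Ezh2* was at 0.679 of the level in pre-iPS cells (log2 fold change -0.56 ± 0.06 SE, adjusted p = 0.000317) and at 0.336 in MEF (-1.57 ± 0.06, adjusted p = 9.84e-08, limma with Benjamini-Hochberg adjustment over all genes tested, as for every adjusted p below). *Ezh1*, the paralog with the weaker methyltransferase activity, did not follow this order. It measured 1162 and 1215 for MEF, 3556 and 2835 for pre-iPS cells, 2482 and 1639 for control iPS cells, 2309 and 1857 for clone 1 and 2078 and 2525 for clone 2. Pre-iPS cells were thus the highest line for *Ezh1* and MEF the lowest, without overlap with the 3 iPS lines, which overlapped each other. *Ezh1* was higher in pre-iPS than in iPS cells by 0.58 ± 0.17 on the log2 scale (adjusted p = 0.0255), a call that was lost without the passage 5 pre-iPS library (0.42, adjusted p = 0.213). It was lower in MEF than in iPS cells (-0.84 ± 0.17, adjusted p = 0.00161).

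Per kilobase of annotated exon, *Ezh2* was the more abundant catalytic transcript in every library. Its level was 682 per kb in MEF, 1378 in pre-iPS and 2032 on average in iPS libraries, and that of *Ezh1* was 195, 525 and 353. *Ezh1* made up 21.8 to 22.7% of the pair in MEF, 24.6 to 30.6% in pre-iPS and 11.6 to 17.5% in the 6 iPS libraries, so the iPS shares did not overlap those of the other lines. With the longest transcript in place of all exons, the mean *Ezh1* shares were 29.2, 35.4 and 20.0%, in the same order.

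*Eed*, the WD40 subunit that binds the methylated histone, and *Suz12*, the scaffold of the core complex, were both lowest in MEF. *Eed* measured 2011 and 1974 for MEF, 3052 and 2785 for pre-iPS cells, and 3361 to 4416 (median 3934) in the 6 iPS libraries. *Suz12* measured 3075 and 3130 for MEF, 6334 and 7305 for pre-iPS cells, and 6822 to 9832 (median 7876) in iPS libraries. The pre-iPS line lay below the iPS range for *Eed* and overlapped it for *Suz12*. Against iPS cells, *Eed* was lower in pre-iPS cells (-0.43 ± 0.08, adjusted p = 0.00266) and in MEF (-0.98 ± 0.08, adjusted p = 3.51e-06). *Suz12* was lower in MEF (-1.35 ± 0.09, adjusted p = 1.71e-06), while its difference between pre-iPS and iPS cells was -0.22 with a 95% interval of -0.43 to -0.01 and an adjusted p of 0.0924. Without the passage 25 control library that adjusted p was 0.0416, for a difference of -0.27.

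The accessory subunits among the members, *Jarid2* and *Mtf2*, were lowest in MEF and highest in iPS cells. *Jarid2*, which helps to recruit PRC2 and adjust its activity, measured 1795 and 1743 for MEF, 6929 and 5930 for pre-iPS cells, 16428 and 10650 for control iPS cells, 11172 and 8245 for clone 1 and 14035 and 11329 for clone 2. *Mtf2*, the Polycomb-like protein that brings PRC2 to CpG islands, measured 1388 and 1394 for MEF, 2667 and 3057 for pre-iPS cells, 9011 and 6620 for control iPS cells, 6086 and 4854 for clone 1 and 7721 and 9417 for clone 2. For both genes each MEF library was below both pre-iPS libraries and these were below every iPS library. MEF held 0.151 of the iPS level of *Jarid2* (-2.72 ± 0.18, adjusted p = 1.17e-06) and 0.196 of that of *Mtf2* (-2.35 ± 0.14, adjusted p = 6.88e-07). Pre-iPS cells held 0.548 of the iPS level of *Jarid2* (-0.87 ± 0.18, adjusted p = 0.00524), with an adjusted p of 0.053 once the passage 25 pre-iPS library was left out, and 0.402 of that of *Mtf2* (-1.31 ± 0.14, adjusted p = 0.000193). Within the Polycomb-like family, which also includes *Phf1* and *Phf19*, *Mtf2* took 32.0 to 32.1% of the value per kb in MEF, 59.4 to 60.1% in pre-iPS and 70.3 to 82.6% in iPS libraries. *Phf1* led that family in MEF with 57.5 to 59.2%.

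**Figure D1:**
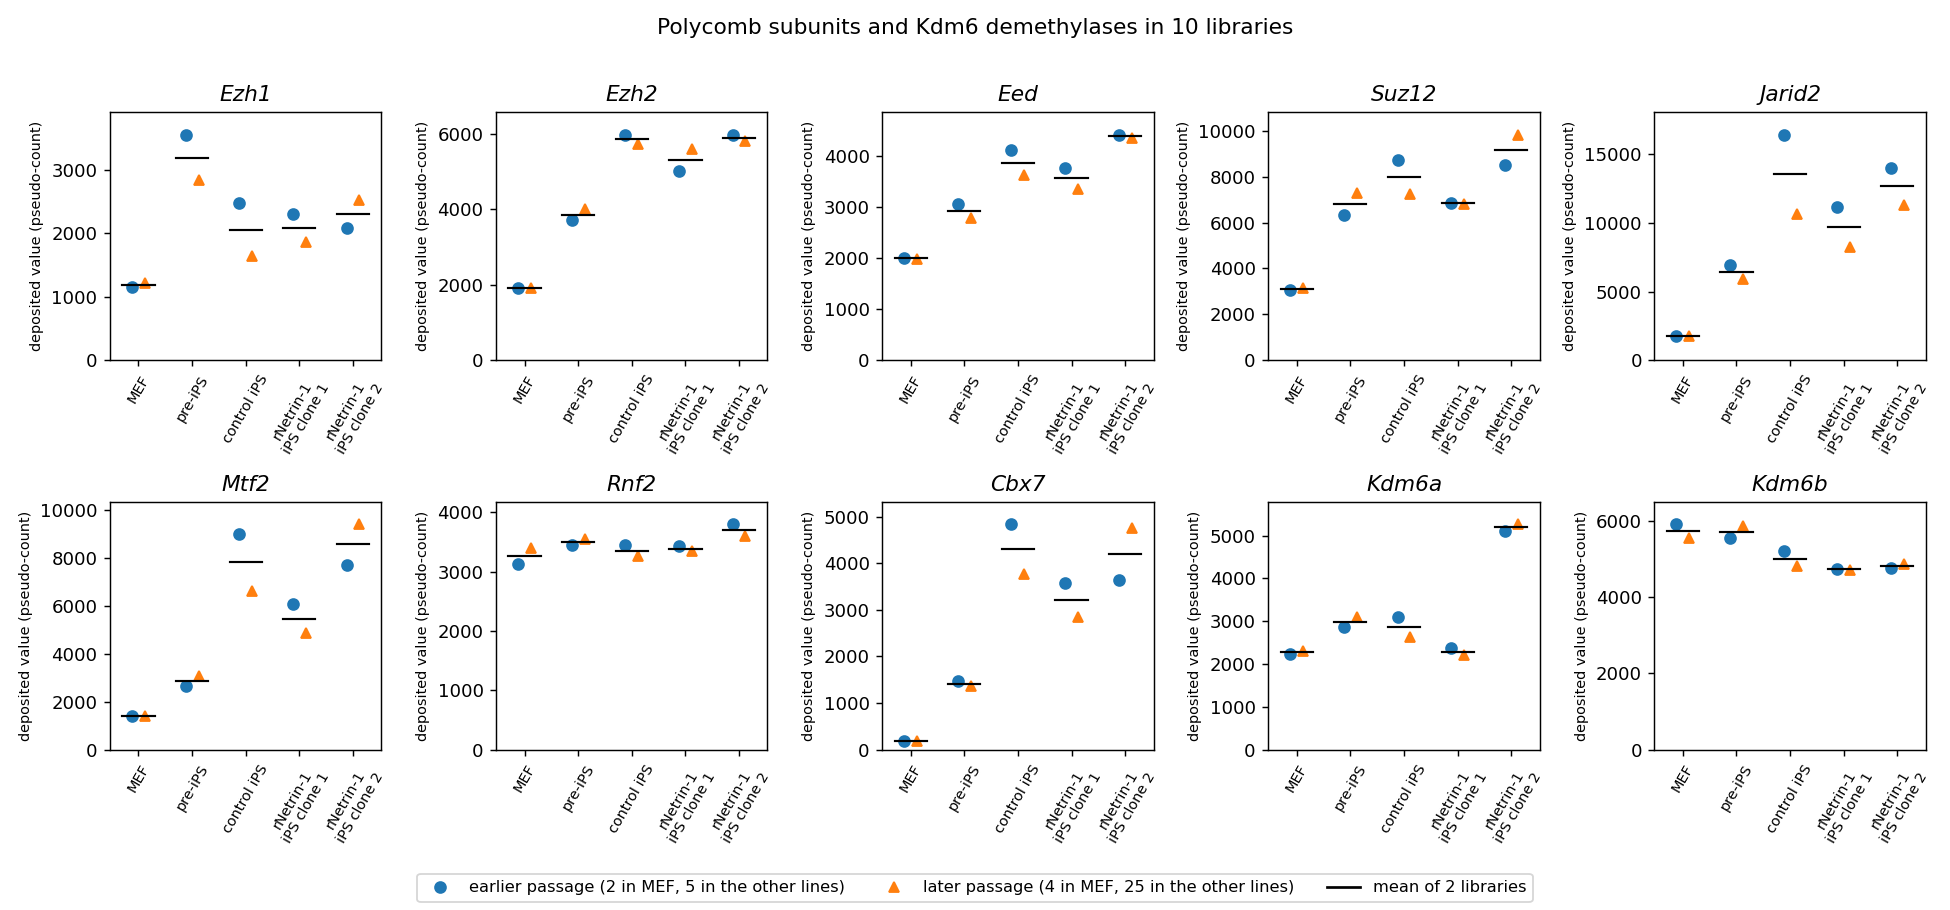
Deposited value (pseudo-count, linear axis from 0) of each of the 10 members in the 10 libraries. Circles are the earlier and triangles the later passage of a line, and bars are the mean of 2 libraries; *Cbx7*, *Jarid2* and *Mtf2* step up from MEF to pre-iPS to iPS lines, *Ezh1* is highest in pre-iPS cells, *Kdm6a* in clone 2, and *Rnf2* lies between 3121 and 3799 throughout.

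In PRC1, the catalytic *Rnf2* and the chromatin reader *Cbx7* stood at opposite ends of the range of change. *Rnf2* measured 3121 and 3390 for MEF, 3449 and 3543 for pre-iPS cells, and 3263 to 3799 (median 3434) in iPS libraries, with all 4 MEF and pre-iPS libraries below the highest iPS library. Its differences from iPS cells were 0.01 in pre-iPS cells (95% interval -0.13 to 0.15, adjusted p = 0.922) and -0.09 in MEF (-0.24 to 0.05, adjusted p = 0.183). The MEF difference was -0.34 (adjusted p = 0.000577) after quantile normalization and 0.29 (adjusted p = 0.00164) after scaling to housekeeping genes, so no direction is given for it. *Cbx7* measured 184 and 192 for MEF, 1476 and 1359 for pre-iPS cells, 4844 and 3777 for control iPS cells, 3576 and 2844 for clone 1 and 3642 and 4755 for clone 2. As a ratio of the iPS to the MEF level this was the widest span among the 10 members, with no overlap between MEF, pre-iPS and iPS libraries. MEF were at 0.0491 of the iPS level (-4.35 ± 0.14, adjusted p = 3.06e-08) and pre-iPS cells at 0.369 (-1.44 ± 0.14, adjusted p = 0.000122).

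Among other CBX subunits of PRC1, *Cbx6* (1.60 ± 0.11) and *Cbx8* (1.32) were higher in MEF than in iPS cells, against the direction of *Cbx7*, and *Cbx2* was lower (-0.99). *Cbx6* (0.42, adjusted p = 0.0151) was also higher in pre-iPS than in iPS cells. Per kilobase of exon, *Cbx7* was 2.07 to 2.18% of the summed *Cbx2*, *Cbx6*, *Cbx7* and *Cbx8* transcripts in MEF, 22.7 to 25.2% in pre-iPS and 41.7 to 57.6% in iPS libraries. The share of *Cbx6* was 86.1 to 87.1% in MEF, 55.7 to 58.0% in pre-iPS and 26.0 to 37.4% in iPS libraries. The RING pair shifted less, with *Rnf2* at 62.6 to 64.7% in MEF, 61.5 to 68.0% in pre-iPS and 68.7 to 77.9% in iPS libraries.

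**Figure D2:**
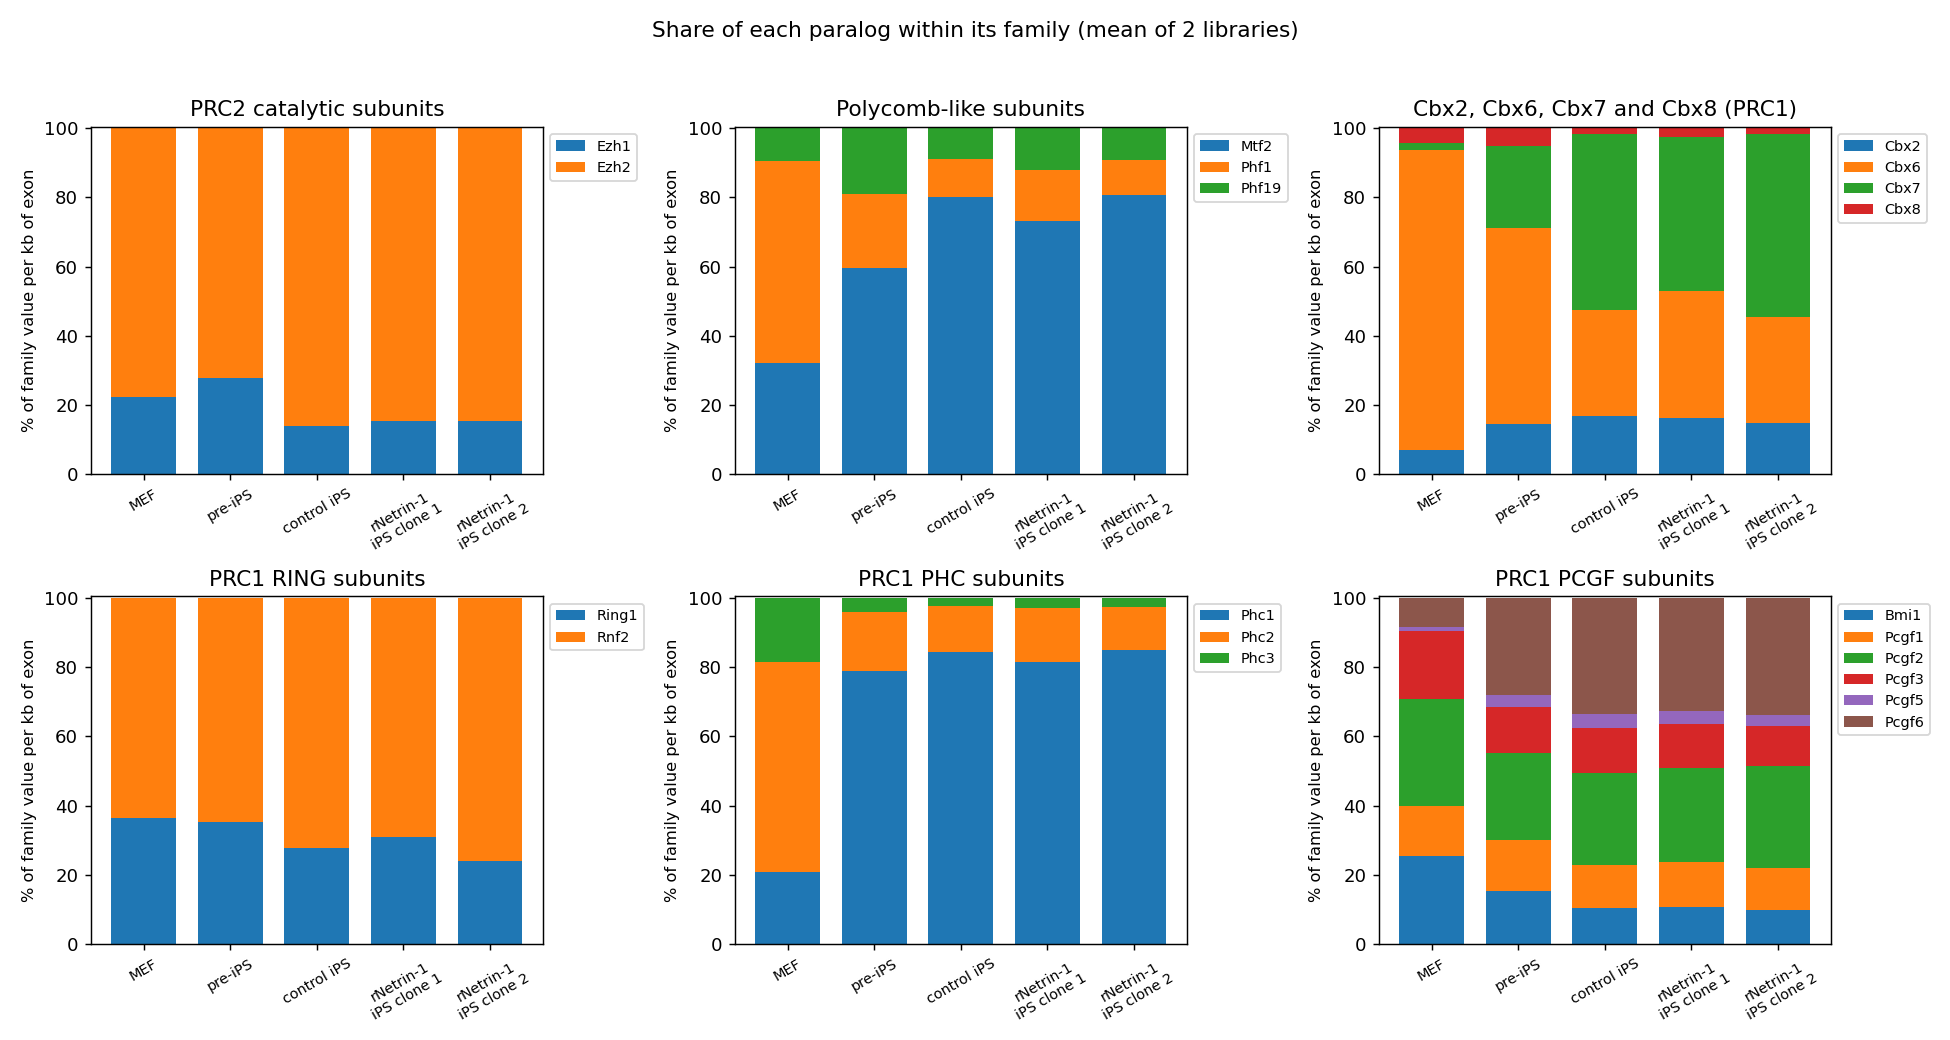
Share of each paralog in the value per kb of exon of its family, in percent, as the mean of the 2 libraries of each line (stacked bars from 0 to 100). *Cbx7* takes 2.13% of the 4 CBX subunits shown in MEF, 23.9% in pre-iPS and 49.5% on average in iPS lines, and *Phc1* takes 20.9, 79.0 and 83.6% of the PHC subunits.

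Between cell states the demethylases differed by less than 2-fold on the deposited scale. *Kdm6b* measured 5919 and 5556 for MEF, 5564 and 5878 for pre-iPS cells, 5209 and 4818 for control iPS cells, 4750 and 4718 for clone 1 and 4763 and 4869 for clone 2. All 6 iPS libraries were below all 4 MEF and pre-iPS libraries. The difference was 0.24 ± 0.06 in pre-iPS cells (adjusted p = 0.0135) and 0.24 ± 0.06 in MEF (adjusted p = 0.00485), a factor of 1.18 in each. The pre-iPS call was lost without the passage 25 pre-iPS library (0.20, adjusted p = 0.0978) and the MEF call without the passage 2 MEF library (0.20, adjusted p = 0.0775), and under quantile normalization the MEF difference was -0.03. After housekeeping scaling the MEF difference of *Kdm6b* from iPS cells was 0.63 (adjusted p = 1.09e-05). *Kdm6a* measured 2240 and 2296 for MEF, 2873 and 3094 for pre-iPS cells, 3104 and 2633 for control iPS cells, 2368 and 2202 for clone 1 and 5110 and 5266 for clone 2. The last line stood apart, and MEF and clone 1 overlapped. *Kdm6a* was lower in MEF than in the mean of the iPS lines (-0.51 ± 0.08, adjusted p = 0.000263), but by -0.12 (adjusted p = 0.155) after housekeeping scaling, and it did not pass the test in pre-iPS cells (-0.12, 95% interval -0.29 to 0.06).

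Counted together, 2 of the 10 members were higher and 5 lower in pre-iPS than in iPS cells, where 18.7% of the 17075 genes tested were higher and 20.8% lower. In MEF against iPS cells, 1 was higher and 8 were lower, against 37.4% and 41.9% of all genes. The median log2 difference of the members was -0.32 in pre-iPS cells and -1.16 in MEF, beside medians of 0.00 and -0.09 over all genes tested. Earlier results of these data were known when the members were chosen, so their counts and medians are descriptions. Between MEF and pre-iPS cells, 0 members were higher and 8 were lower in MEF, against 34.2% and 36.4% of all genes, with *Rnf2* (-0.10) and *Kdm6b* (0.0039) as the exceptions. All 10 passed in that comparison after quantile normalization, while after housekeeping scaling *Eed* was at -0.13 (adjusted p = 0.212), *Kdm6a* at 0.02, *Rnf2* at 0.31 and *Kdm6b* at 0.42 (adjusted p = 0.000735). edgeR and DESeq2 each gave 8 members there too, all lower. Over the table they called 5842 and 5833 genes higher and 5979 and 5928 lower. These 3 comparisons share lines. A scaling to *Gapdh*, *Actb*, *Hprt* and *Tbp* raised the median of all genes in MEF against iPS cells from -0.09 to 0.30 and turned 6385 higher and 7161 lower genes into 8434 and 5352, while *Ezh1*, *Ezh2*, *Eed*, *Suz12*, *Jarid2*, *Mtf2* and *Cbx7* stayed lower in MEF and past the test, with *Ezh1* at -0.45 and *Eed* at -0.59. The same scaling put *Kdm6b* at 0.63 in MEF against iPS cells. In MEF against pre-iPS cells it turned 5843 higher and 6219 lower genes into 8090 and 4249. Of the log2 distance from MEF to iPS cells, pre-iPS cells had covered 83.7% for *Suz12*, 68.2% for *Jarid2*, 66.9% for *Cbx7*, 64.5% for *Ezh2*, 56.3% for *Eed* and 44.1% for *Mtf2*. *Ezh1* lay beyond the iPS level, at 169%, and *Kdm6b* was still at the MEF level, at 1.61% of a short distance of -0.24. These shares are on the deposited scale and depend on it. After housekeeping scaling, MEF differed in *Eed* by -0.13 from pre-iPS and by -0.59 from iPS cells. For *Mtf2* these differences were -0.62 and -1.96, and for *Kdm6b* 0.42 and 0.63.

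**Figure D3:**
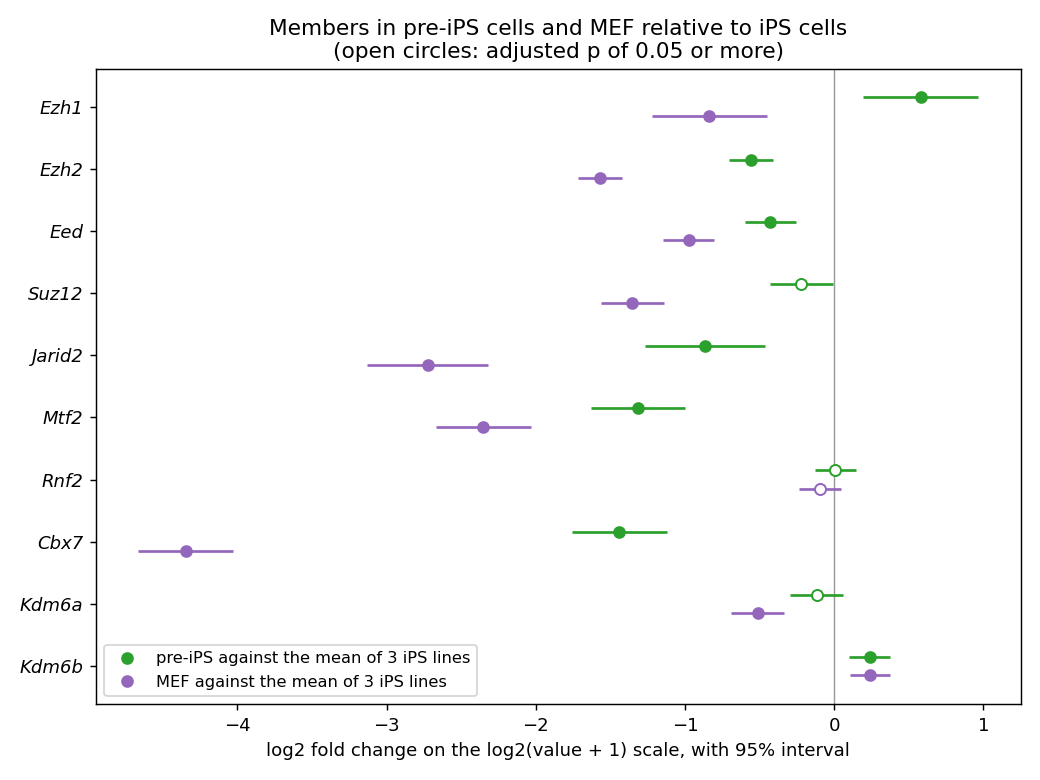
Log2 fold change of each member in pre-iPS cells (green) and MEF (purple) against the mean of the 3 iPS lines, with 95% intervals from limma; open circles did not pass an adjusted p of 0.05. *Cbx7*, *Jarid2* and *Mtf2* are farthest to the left in MEF, *Ezh1* lies on opposite sides in the 2 comparisons, and *Rnf2* is near 0 in both, although its MEF value was 0.29 after housekeeping scaling and that of *Kdm6b* -0.03 after quantile normalization.

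The rest of the system gave the background to these members. The 36 other genes listed were PRC2, PRC1 and deubiquitinase genes together with *Uty*, the Y-linked paralog of *Kdm6a*. Of these, 7 were higher and 12 lower in pre-iPS than in iPS cells, and 13 were higher and 17 lower in MEF than in iPS cells. These are 19.4 and 33.3% of the list in the first comparison, where 18.7 and 20.8% of all genes were called, and 36.1 and 47.2% in the second, where 37.4 and 41.9% were. Their median log2 differences were -0.08 and -0.03. In MEF against pre-iPS cells 14 were higher and 11 lower, or 38.9 and 30.6%, beside 34.2 and 36.4% of all genes. *Ezhip*, an inhibitor of PRC2 catalysis, measured 1.09 to 4.08 in the MEF and pre-iPS libraries and 192 to 561 in the iPS libraries, with adjusted p-values of 2.72e-07 for MEF and 5.65e-06 for pre-iPS cells. *Epop*, which links PRC2 to elongin, was at 202 and 210 for MEF, 6120 and 5389 for pre-iPS cells and 7357 to 10274 in iPS libraries. *Ezhip* was therefore near 0 in both non-iPS lines. The difference of *Epop* from iPS cells was -5.43 ± 0.10 for MEF and -0.63 for pre-iPS cells, while that of *Phc1*, a PRC1 subunit with a sterile alpha motif, was -3.33 ± 0.12 and -0.38. *Phc3* (1.52) and *Phc2* (0.83) were higher in MEF than in iPS cells. Among the PCGF subunits that set the type of PRC1, *Pcgf6* (-1.97) and *Pcgf5* (-1.74) were lower and *Bmi1* (1.35) and *Pcgf3* (0.72) higher in MEF. *Auts2* (1.52) was also higher in MEF than in iPS cells. *Ring1*, the paralog of *Rnf2*, was higher in both MEF (0.51) and pre-iPS cells (0.54, adjusted p = 0.011). *Bcor* was higher in pre-iPS cells (0.44), and *Rybp*, a subunit of variant PRC1, was lowest there, at -0.92 ± 0.07 against iPS cells (adjusted p = 2.62e-05).

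Genes of proliferation moved with the PRC2 core. All 6 of *Mki67*, *Top2a*, *Ccnb1*, *Pcna*, *Mcm5* and *Mcm3* were lower in MEF than in iPS cells (-0.74 for *Mki67* to -2.0 for *Mcm5*) and 5 of them were lower in pre-iPS cells, with *Mki67* at -0.24 (adjusted p = 0.273). Their summed value was 34229 to 34561 in MEF, 59520 to 74781 in pre-iPS cells and 78418 to 105223 in iPS libraries, the same order as *Ezh2*. Their part in the *Ezh2* difference was not tested. The 3 genes whose log2 values ran closest to *Ezh2* over the 10 libraries were *Cdk1*, *Rpa2* and *Tfam* (Pearson r of 0.997, 0.996 and 0.995). Over the 8 pre-iPS and iPS libraries they were *Tra2b*, *Trdmt1* and *Rbm17* (0.998, 0.993 and 0.993). For *Cbx7* they were *Trim6*, *Dppa5a* and *2410012M07Rik* over 10 libraries (0.998, 0.998 and 0.997) and *Taf7*, *Hic2* and *Gm13051* over 8 (0.997, 0.996 and 0.995). For *Kdm6b* they were *Brox*, *Mnt* and *Sema4f* over 10 (0.958, 0.946 and 0.945) and *Tlcd2*, *Dsg2* and *Brox* over 8 (0.985, 0.982 and 0.977). These libraries fall into few lines, and each set was picked as the closest among all genes, so the coefficients are descriptions.

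Between the 'rNetrin-1-derived' clones and the 'control' iPS line, the question was whether derivation with rNetrin-1 left a mark on these genes. No member passed the test, with 0 higher and 0 lower, where 2.2% of all genes were higher and 1.89% lower. edgeR and DESeq2 on recovered reads also called 0 members, and *Kdm6a* was at 0.27 by limma (adjusted p = 0.127). With the passage as a replicate block the call stayed at 0, while the genes called over the whole table rose from 375 higher and 322 lower to 724 and 603. With only the lines compared these fell to 77 and 92, and the members called stayed at 0. The 95% intervals of the difference, clones less control, were -0.22 to 0.09 for *Ezh2*, -0.15 to 0.22 for *Eed* and -0.24 to 0.21 for *Suz12*. They were wider for *Jarid2* (-0.69 to 0.16), *Cbx7* (-0.57 to 0.11), *Mtf2* (-0.52 to 0.15) and *Ezh1* (-0.30 to 0.52). Differences within these bounds are not excluded, and the intervals hold no spread between control lines, as there was 1. *Uty* was the only gene of the 36 that was called (-4.06, adjusted p = 0.00535), with clone 1 near the control level and clone 2 at 3.97 and 4.47.

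The clones differed from each other in *Kdm6a*. It was 5110 and 5266 for clone 2 against 2368 and 2202 for clone 1, a factor of 2.27 (1.18 ± 0.09, adjusted p = 0.00184). At each passage the clone 2 library was above that of every other line. This was the only member called between the clones, 1 higher and 0 lower, where 1.12% of all genes were higher and 0.463% lower. With the passage as a block, the genes called over the table rose from 192 higher and 79 lower to 383 and 240. With only the 2 clones in the fit they fell to 2 and 4. The main fit shares its spread with the other lines, the close MEF pair included. The *Kdm6a* call was kept under the block (adjusted p = 0.00401), and when the fit held only the 2 clones its adjusted p was 0.0982. *Mtf2* (0.65, adjusted p = 0.115) and *Suz12* (0.42, adjusted p = 0.125) passed in DESeq2 alone, where their adjusted p-values were 0.0156 and 0.0348. DESeq2 called 675 genes higher and 328 lower over the table. All 10 members had values above 0 for this difference, although *Kdm6b* (0.02) was at -0.03 after housekeeping scaling, with a median of 0.34 beside -0.01 over all genes. The 5 pluripotency genes summed to 30004 to 35877 in clone 2 and 7837 to 12331 in clone 1, and 3 of the 18 markers were called higher in clone 2. Their part in these differences was not tested.

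The sex-linked genes also separated the clones. *Uty*, the Y-linked paralog of *Kdm6a* with weak demethylase activity, measured 977 and 773 for clone 1, 1303 and 965 for control iPS cells, 3.97 and 4.47 for clone 2, 7.14 and 0.957 for pre-iPS cells and 77.6 and 121 for MEF. *Xist*, the non-coding RNA of the inactive X chromosome, measured 154 and 144 for clone 1, 317 and 282 for control iPS cells, 21946 and 20013 for clone 2, 16030 and 22076 for pre-iPS cells and 52735 and 52989 for MEF. Clone 2 and pre-iPS cells thus shared high *Xist* and near-absent *Uty*, *Ddx3y*, *Kdm5d* and *Eif2s3y*, and *Kdm6a* was high in the first only. MEF held both *Xist* and Y-linked transcripts. *Kdm6a* and *Uty* summed to 5114 and 5271 for clone 2, 4408 and 3598 for control iPS cells, 3345 and 2975 for clone 1, 2880 and 3095 for pre-iPS cells and 2318 and 2417 for MEF. Of the other X-linked partners of Y genes, *Ddx3x* (0.49, adjusted p = 0.0245) and *Kdm5c* (0.48, adjusted p = 0.0343) were higher in clone 2 than in clone 1, and *Eif2s3x* was at 0.33 (adjusted p = 0.227). Of 501 X-linked genes with a mean value of at least 50, 8.98% were higher in clone 2 than in clone 1 and 0.2% lower, with a median of 0.15, against 0.822% and 0.474% of 13504 autosomal genes with a median of -0.01. Their part in the *Kdm6a* difference was not tested.

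**Figure D4:**
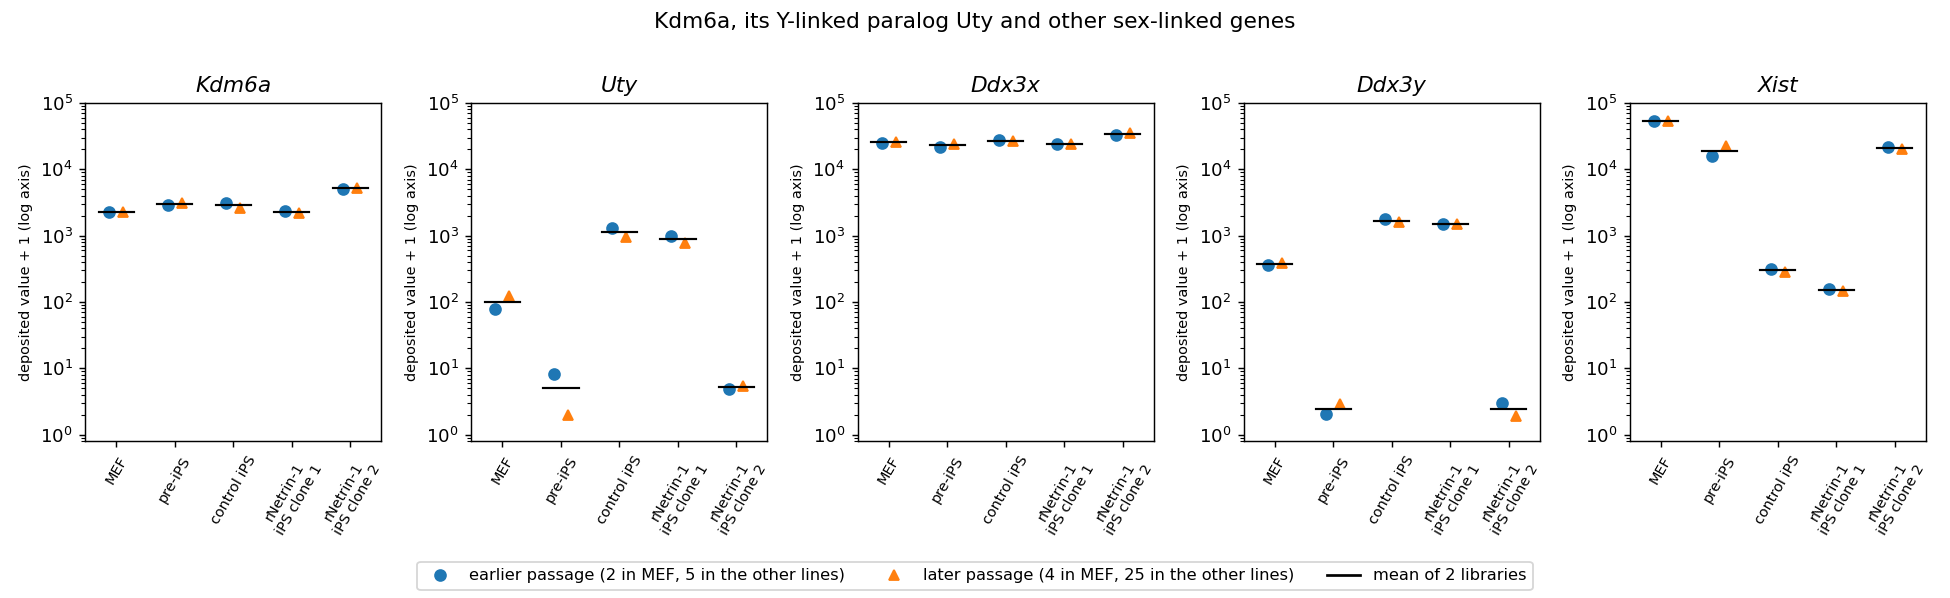
Deposited value plus 1 (log axis) of *Kdm6a*, its Y-linked paralog *Uty*, the X- and Y-linked *Ddx3x* and *Ddx3y*, and *Xist* in the 10 libraries (circles: earlier passage, triangles: later passage, bars: mean of 2). In clone 2, *Kdm6a* is at 5110 and 5266, *Uty* is under 5 and *Xist* is at 21946 and 20013; pre-iPS cells have the same *Uty* and *Xist* pattern with *Kdm6a* at 2873 and 3094.

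Between passages 5 and 25 the test was passed by *Jarid2*. It was lower at passage 25 in 4 of 4 lines, from 6929 to 5930 in pre-iPS cells, 16428 to 10650 in control iPS cells, 11172 to 8245 in clone 1 and 14035 to 11329 in clone 2 (-0.40 ± 0.07, adjusted p = 0.0171, with the line as a term). It was the only member called, 0 higher and 1 lower, where 3.31% of all genes were higher and 7.63% lower. edgeR and DESeq2 each also called 1 member, where they called 794 and 1003 genes higher and 1267 and 1553 lower over the table. Without either clone 1 library the adjusted p of *Jarid2* was 0.111 or 0.112, at a difference of -0.39, and without the line as a block it was 0.782 at an unchanged -0.40. Those fits called fewer genes over the whole table, where the main fit called 566 higher and 1303 lower. Leaving out a clone 1 library gave 30 and 203 or 26 and 218, and leaving out the block gave 1 and 7. Without either clone 2 library *Ezh1* was lower too (-0.41, adjusted p of 0.0401 and 0.0404), against -0.24 (adjusted p = 0.265) over all 8 libraries. *Eed* was not called, although it too was lower at passage 25 in each line. It went from 3052 to 2785 in pre-iPS cells and 4108 to 3631 in control iPS cells. In clone 1 it went from 3759 to 3361 and in clone 2 from 4416 to 4361. The share of all genes lower in each line was not counted. *Ezh2* differed by 0.04 (95% interval -0.09 to 0.17) and *Kdm6b* by -0.0028 (-0.12 to 0.12). *Auts2* was the only other Polycomb gene called (0.40, adjusted p = 0.03), and of the proliferation genes *Mki67* was higher at passage 25 (0.36, adjusted p = 0.0255).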

How the data were processed

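Per the labels, poly(A) RNA was made into TruSeq libraries, sequenced as 50 nt single reads on a single lane, aligned with TopHat2 2.0.8b to mm10 and counted with HTSeq 0.5.3p9, after CASAVA 1.8.2 and FastQC. The annotation, the counting mode and the use of strand are not given in the sources used here. The authors deposited edgeR pseudo-counts (a normalized signal per gene, scaled to a common library size) for 18901 genes in 10 libraries. Whole reads were recovered from this deposited signal for 100% of the values within 0.1 read, which gave the depth above.

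The 17075 genes that reached 10 in 2 or more libraries, all 10 members included, entered limma 3.58.1 in R 4.3.3. The model (lmFit, then eBayes with trend) used log2(value + 1) and fitted 1 mean per line to the 10 libraries together. The passage comparison used 8 libraries with the line as a term. Fold changes are on the log2(value + 1) scale. Calls are at a Benjamini-Hochberg adjusted p under 0.05 over all genes tested. Passage numbers from the labels pair the libraries of the 4 reprogrammed lines: deviations of same-passage libraries from their line means correlated in all 6 pairs of lines (r across genes 0.235 to 0.504, mean 0.353). An alternative fit therefore took the passage as replicate block. The paper's methods name no test for the RNA-sequencing.

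Exon lengths and positions came from GENCODE M21, and 99.7% of the symbols were placed on a chromosome. Promoter sequences came from RefSeq. Alternatives were pseudocounts of 0.5 and 5, no filter or a mean of at least 50, quantile and housekeeping scaling, only the lines compared, a fold of at least 2, edgeR 4.0.16 (quasi-likelihood test) and DESeq2 1.42.0 on the recovered reads, and leaving out each library. Use of the longest transcript was added after seeing the data. Simulated counts were also put through limma, edgeR and DESeq2, for pre-iPS against iPS cells only. Apart from the genes set to change, every line had the same means there, so the other comparisons were not covered. The members and lists were chosen with earlier results of these data known. The text names all members, of the other Polycomb and target genes the 3 higher and 3 lower called genes with the largest difference per comparison, the marker, sex-linked, proliferation and housekeeping lists, and the 3 genes closest to *Ezh2*, *Cbx7* and *Kdm6b*. *Cbx2*, *Cbx8*, *Phc2*, *Phc3*, *Pcgf3*, *Pcgf5* and *Bmi1* were added after their values were seen. A gene that the rule names is not reported here.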

Additional observations from a re-analysis of the deposited data

Results flagged for a closer look

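Clone 2 less clone 1 of the 'rNetrin-1-derived' cells is also the difference between their contrasts with the same control line. That difference was singled out for *Kdm6a* and its Y-linked paralog *Uty*, where a test of it passed the threshold. For *Kdm6a* it was 1.18 on the log2 scale (adjusted p = 0.00184 by limma), with clone 2 above and clone 1 below the control line. For *Uty* it was -7.38 (adjusted p = 0.00184), with clone 2 at 3.97 and 4.47 and clone 1 at 977 and 773. *Xist* was at 21946 and 20013 in clone 2 and at 154 and 144 in clone 1, and other Y-linked transcripts were also near 0 in clone 2. Each clone is a single line, so clone and sex-linked pattern cannot be told apart.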

How the results depend on the processing

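With a fold of at least 2 added to the call, the members called were 2 in pre-iPS against iPS cells, 5 in MEF against iPS cells and 0 between passages, and the other Polycomb genes called were 2, 15 and 0, with 11 in MEF against pre-iPS cells. The share of all genes at that fold was not counted. DESeq2 called 3 members and 3 other Polycomb genes between the clones, 2 other genes for the clones against the control and 3 between passages. Over the table it called 675 genes higher and 328 lower between the clones, where limma called 192 and 79. It called 735 and 636 for the clones against the control and 1003 and 1553 between passages. Other Polycomb genes between passages numbered 2 with edgeR, quantile or housekeeping scaling and 3 with a mean of at least 50. With no replicate block 0 members and 0 other genes were called there, where 1 gene was higher and 7 were lower over the table. The replicate block (passage) left 7 members called in pre-iPS against iPS cells and changed no other call of a member. With only the lines compared, 0 members were called between the clones, with *Kdm6a* still at 1.18, and a pseudocount of 5 gave 2 other genes.

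Leaving out a library gave 0 to 2 members between passages, 0 to 3 other genes between passages, 12 to 21 in pre-iPS against iPS cells (12 without the passage 5 pre-iPS library), 0 to 2 for the clones against the control and 1 to 2 between the clones.

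Small differences changed sign. Under quantile normalization *Rnf2* was -0.048 in pre-iPS against iPS cells, and *Kdm6b* was -0.033 in MEF against iPS cells, -0.25 in MEF against pre-iPS cells and 0.027 between passages. Under housekeeping scaling *Rnf2* was -0.018 in pre-iPS and 0.29 in MEF against iPS cells and 0.31 in MEF against pre-iPS cells, *Kdm6a* was 0.022 in the last, and *Kdm6b* was -0.032 between the clones and 0.0019 between passages, where edgeR gave 0.017 and DESeq2 0.015. Leaving out a library gave ranges across 0 for *Rnf2* in pre-iPS against iPS cells (-0.010 to 0.028), *Kdm6b* in MEF against pre-iPS cells (-0.042 to 0.049), *Ezh1* (-0.19 to 0.41), *Eed* (-0.057 to 0.12), *Suz12* (-0.15 to 0.12), *Jarid2* (-0.58 to 0.047) and *Mtf2* (-0.40 to 0.040) in the clones against the control, *Ezh1* between the clones (-0.011 to 0.30), and *Suz12* (-0.023 to 0.14), *Mtf2* (-0.19 to 0.052), *Kdm6a* (-0.10 to 0.015) and *Kdm6b* (-0.030 to 0.034) between passages. The cause of these changes was not tested.

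Apart from leaving out a library, 549 member values under other settings kept their direction and their side of the threshold, while 12 changed sign, 5 passed only there and 4 no longer passed. The design holds 1 line per state outside the iPS cells, so line and state cannot be told apart. Depth limits few members, since *Cbx7* in MEF, the lowest, had 155 and 182 reads.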

Other observations

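Among 20 genes listed as Polycomb targets, 17 passed the filter on low values, and *Neurog2*, *Nkx2-2* and *Olig2* did not. The list was not silent as a whole in these iPS libraries, where *Pax6* measured 502 to 1261, against 43.4 and 35.0 for MEF. In pre-iPS against iPS cells 2 were higher and 6 lower, and in MEF 6 were higher and 10 lower, beside the percentages of all genes given above. The higher genes in pre-iPS cells were both of the Ink4/Arf locus. *Cdkn2a*, which encodes p16 and Arf, measured 5434 and 4991 in pre-iPS cells, 5733 and 5717 in MEF and 2394 to 4376 in iPS libraries (0.76 ± 0.15, adjusted p = 0.00415 by limma for pre-iPS cells). *Cdkn2b*, which encodes p15, measured 1476 and 1137 in pre-iPS cells, 4884 and 4755 in MEF and 525 to 1096 in iPS libraries (0.90 ± 0.22, adjusted p = 0.0127). Both genes were above every iPS library in the other lines.

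*Sox17*, an endoderm factor, was listed at 29.6 to 171 in iPS libraries and at 0 in 3 of the 4 MEF and pre-iPS libraries. *Hand1* averaged 141.1, 81.2 and 48.9 in control, clone 1 and clone 2 iPS cells and fell with passage (-1.40 ± 0.23, adjusted p = 0.0134), as did *Eomes* (-1.02 ± 0.15, adjusted p = 0.00974) and *Cdkn2b* (-0.51, adjusted p = 0.0176). *Pax6* rose with passage (0.54, adjusted p = 0.0278). *Hoxd10* (6.05 ± 0.38) and *Tbx5* (5.92 ± 0.29), which mark position in the limb, were the target genes furthest up in MEF. No target gene was called for the clones against the control or between the clones by limma.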
